A study of Mus musculus with 36 samples.

Results

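Matrix metalloproteinases (Mmp genes), the secreted proteases of the ADAMTS family (Adamts genes) and the tissue inhibitors of metalloproteinases (Timp genes) were described in RNA sequencing of whole subcutaneous mouse tumours. Members were chosen by name alone, as every gene whose symbol is Mmp, Adamts or Timp followed by a number, with a further letter allowed for Mmp. This gave 46 of the 37417 genes in the count table, of which 23 were Mmp, 19 Adamts and 4 Timp genes.

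The 36 libraries each came from the tumour of 1 wild-type mouse aged 12 weeks, taken at end-stage. By their labels the tumours were grown from established cell lines in hosts of the matching strain, namely MC38 (colon carcinoma) or PancO2 (pancreatic carcinoma) in C57BL/6J mice and CT26 (colon carcinoma) in BALB/c mice. Mice received control IgG from rat serum, anti-PD-1 or anti-CTLA4, antibodies against inhibitory receptors of T cells, by intraperitoneal injection at 10 mg/kg. Each of the 9 combinations of model and treatment held 4 libraries, named below by model, treatment and mouse number. A tumour library mixes RNA of the grafted cells with RNA of host stroma and host immune cells, and in such bulk samples fewer cells of a type and less RNA per cell cannot be told apart.

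Expression did not follow the labels, so members were described by classes set from 2 genes outside the family. Values are CPM, the counts of a gene per 1000000 counts assigned to genes in that library. In 12 libraries the class II gene H2-Ea-ps was between 32.8 and 134 CPM (the H2-Ea class) and in the others it was at most 0.0845. In 12 further libraries the copper-carrying ferroxidase ceruloplasmin (Cp) was between 1389 and 2168 CPM (the Cp class), and the remaining 12, with Cp at 611 or below, form the low class. All 9 labelled groups held libraries of more than 1 class, and 8 held all 3. C57BL/6 mice do not express H2-Ea whereas BALB/c mice do, yet H2-Ea-ps was present in 4 of 12 libraries labelled BALB/c and in 8 of 24 labelled C57BL/6J, so that 16 of 36 libraries went against their strain label. Total counts per library ranged from 7883106 to 41751023 (median 27968300). One library of the H2-Ea class, PancO2 anti-PD-1 71 by its label and called library 71 here, stood apart, with the lowest total, 86.5% of its reads unassigned (44.8% to 63.4% in the others) and 15.7% of its counts from mitochondrial genes (2.80% to 4.35%). Member calls that changed when it was left out are given both ways. The summed CPM of 10 fibroblast markers ranged from 1945 to 3974 in the H2-Ea class, 3332 to 6640 in the Cp class and 5720 to 13003 in the low class, and that of 11 macrophage markers was 932 to 1859, 1175 to 2062 and 1841 to 2740. The 5 epithelial markers summed to 8.80 to 43.7, 577 to 1186 and 64.4 to 430 CPM in the same order. Single markers did not all follow these sums. Col1a2 was at 964 to 1893 CPM in the H2-Ea class, 100 to 641 in the Cp class and 479 to 881 in the low class. Dcn was at 68.2 to 238, 1598 to 2922 and 635 to 1154 CPM, highest in the Cp class. The macrophage markers Mrc1 (157 to 447, 24.3 to 95.1 and 245 to 662) and Msr1 (154 to 318, 27.1 to 81.1 and 150 to 234) were lowest there. The part of these cell types in the class differences below was not tested.

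Matrix metalloproteinases are zinc-dependent enzymes made as inactive precursors, which cut collagens, elastin, proteoglycans and many signalling proteins outside the cell. ADAMTS enzymes share the catalytic design and add thrombospondin repeats that hold them to the matrix, where some cleave proteoglycans such as versican and aggrecan and others trim procollagen. TIMPs bind the active site of these enzymes and block it, and in tumours all of these genes can be transcribed by cancer cells, fibroblasts, macrophages and neutrophils.

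Mmp10 and Mmp3, which varied most between libraries of the low class, belong to a group of Mmp genes on chromosome 9. The sequence upstream of 5 genes of this group is shown first so that neighbours with unlike levels can be compared. The group holds 10 members (GRCm38 chr9:7272514-7699585), in the order Mmp13, Mmp12, Mmp1b, Mmp3, Mmp1a, Mmp10, Mmp8, Mmp27, Mmp20 and Mmp7, all on the plus strand except Mmp1b. AP-1, the Fos and Jun transcription factor dimer, is a textbook activator of collagenase and stromelysin promoters, and its site TGANTCA was searched in the 250 bases before each RefSeq transcription start of the build GRCm38.p6. Each line gives the 120 bases that end just before a start, 5′ to 3′ on the plus strand, with a match to that site in capitals.
Mmp13, chr9:7272394-7272513: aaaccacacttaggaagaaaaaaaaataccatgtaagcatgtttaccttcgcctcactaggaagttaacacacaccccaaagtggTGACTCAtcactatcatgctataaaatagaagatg
Mmp12, first start, chr9:7344277-7344396: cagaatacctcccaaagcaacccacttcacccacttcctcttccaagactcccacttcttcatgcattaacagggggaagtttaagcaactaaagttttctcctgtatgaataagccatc
Mmp12, second start, chr9:7347254-7347373: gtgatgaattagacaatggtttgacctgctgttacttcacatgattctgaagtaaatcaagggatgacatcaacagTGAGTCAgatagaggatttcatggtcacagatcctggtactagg
Mmp3, chr9:7445702-7445821: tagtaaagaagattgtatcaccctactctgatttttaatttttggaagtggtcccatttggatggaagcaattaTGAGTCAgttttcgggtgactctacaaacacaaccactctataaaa
Mmp10, chr9:7502222-7502341: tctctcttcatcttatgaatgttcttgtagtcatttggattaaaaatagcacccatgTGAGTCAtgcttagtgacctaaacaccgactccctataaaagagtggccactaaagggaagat
Mmp8, chr9:7558309-7558428: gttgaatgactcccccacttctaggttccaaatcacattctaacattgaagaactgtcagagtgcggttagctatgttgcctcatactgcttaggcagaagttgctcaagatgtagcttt

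The match began 35 bases before the start in Mmp13, 44 before the second start of Mmp12, 46 in Mmp3 and 63 in Mmp10, and none was found before Mmp8 or the first start of Mmp12. Windows were found for 32 of the 46 members (35 windows, since some genes have more than 1 start). Members without a window were not searched, among them Mmp2, Mmp9, Mmp19, Adamts4, Adamts5 and Adamts7. The site, counted on both strands, was in 8 of 12 windows of the chromosome 9 group, belonging to 8 of its 10 genes, and in 0 of the 23 windows of other members. Over all 32851 RefSeq promoter windows it was in 2217 (6.75%). The letters TATAAA were in 7 of the 12 and 2 of the 23 windows, against 12.4% of all windows. These are matches of letters and say nothing of binding in these tumours.

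Of the 46 members, 28 had a mean of at least 1 CPM over the 36 libraries and 22 of at least 10 CPM. Among these 28, the highest class median was in the low class for 15, in the Cp class for 9 and in the H2-Ea class for 4. These numbers were not counted over all genes, so they are not read as a trait of the members. The groups of libraries are compared without a test, because measured values defined them. For each count of members without overlap, the share over all 14125 genes of at least 1 CPM is given beside it. For 15 of the 28 members (53.6%), all libraries of 1 class lay above or below all libraries of both other classes, against 32.1% of those genes. In the low class 8 members were higher (Mmp2, Mmp9, Mmp10, Mmp14, Mmp23, Adamts5, Adamts9 and Adamts12), as were 5.78% of genes. In the Cp class 3 were higher (Mmp28, Adamts1 and Adamts6, against 8.2% of genes) and in the H2-Ea class 1 (Timp1, against 4.91%). In the H2-Ea class 5 were lower (Mmp2, Mmp11, Mmp14, Adamts7 and Adamts14, against 9.18%), in the Cp class 1 (Adamts9, against 5.44%) and in the low class 0 (against 2.71%). Without library 71 the same members did not overlap, but the shares over all genes were larger. For higher libraries they were then 6.72% (low class), 9.18% (Cp class) and 7.48% (H2-Ea class). For lower libraries they were 11.1% (H2-Ea class), 7.31% (Cp class) and 3.99% (low class). The share for any class is not given without that library.

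**Figure D1:**
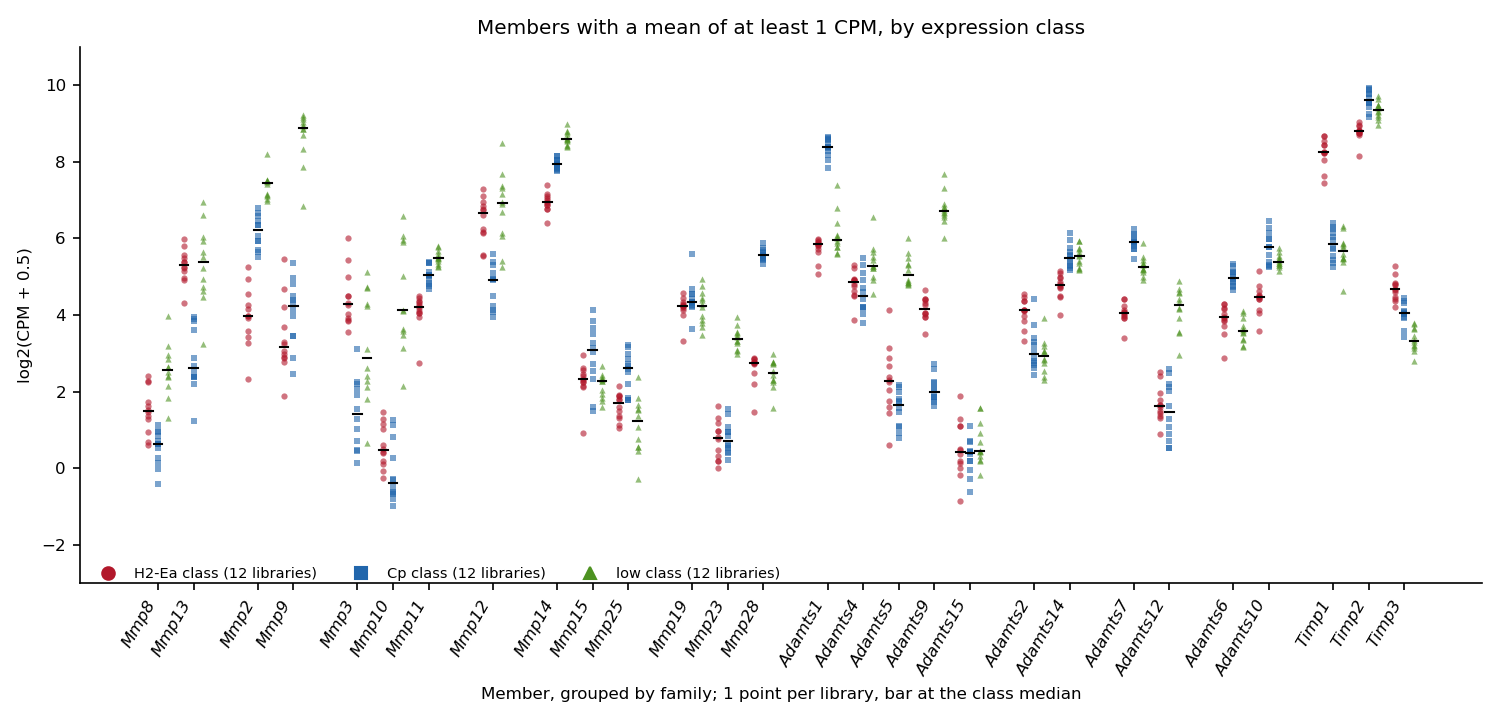
Level as log2(CPM + 0.5) of the 28 members with a mean of at least 1 CPM in each of the 36 libraries, with points coloured by expression class and a bar at each class median. Timp1 separates the H2-Ea class upwards, Adamts1 and Mmp28 the Cp class, and Mmp9, Adamts5 and Adamts9 the low class.

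The inhibitors did not share a pattern. Timp1, a secreted inhibitor of most MMPs (ENSMUSG00000001131, GRCm38 chrX:20870166-20874735), was between 173 and 411 CPM (median 306) in the H2-Ea class, 37.8 and 83.6 (57.6) in the Cp class and 24.2 and 79.9 (50.4) in the low class. The lowest H2-Ea library was library 71, and the next was at 197 CPM. Its median was 5.30 times that of the Cp class and 6.06 times that of the low class, while the latter pair overlapped. Timp2, which also helps Mmp14 to activate pro-Mmp2 at the cell surface, was the most abundant member by mean CPM. It was at 286 to 526 CPM (449) in the H2-Ea class, 580 to 970 (781) in the Cp class and 501 to 846 (658) in the low class, so the H2-Ea and Cp classes did not overlap (1.74 times) and the Cp and low classes did. Timp3, the matrix-bound TIMP that also inhibits ADAMTS enzymes, was at 17.8 to 38.6 (24.9), 10.2 to 21.4 (16) and 6.42 to 13.4 (9.45) in the H2-Ea, Cp and low classes. Its H2-Ea libraries all lay above the low ones (2.63 times), and the Cp libraries overlapped both. Timp3 shares 21.3% of its exon bases with Syn3 on the other strand, and whether the counting used strand is not given in the sources used here. Per kilobase of exon, Timp1 had the highest level of the 3 in the H2-Ea class (344 CPM per kilobase, Timp2 115, Timp3 3.06), and Timp2 in the Cp class (200 against 64.9 for Timp1) and in the low class (169 against 56.8).

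Both gelatinases, which cut denatured collagen and basement membrane collagen, were highest in the low class, as was the membrane-bound enzyme Mmp14. Mmp14, the membrane-type collagenase that activates pro-Mmp2 (ENSMUSG00000000957), was at 84.0 to 168 CPM (122) in the H2-Ea class, 218 to 284 (244) in the Cp class and 337 to 508 (386) in the low class. These are 3 steps without overlap, with the low class 3.15 times the H2-Ea class and 1.58 times the Cp class. Mmp2 (ENSMUSG00000031740, GRCm38 chr8:92827291-92853420) followed the same order more steeply, at 4.52 to 37.3 (15.2), 44.9 to 110 (74.1) and 126 to 294 (175) CPM. Its low-class median was 11.6 times that of the H2-Ea class and 2.37 times that of the Cp class. Mmp9 (ENSMUSG00000017737, GRCm38 chr2:164940780-164955850), the gelatinase that neutrophils store in granules, was at 3.21 to 43.2 (8.44) in the H2-Ea class, 5.01 to 40.4 (18.4) in the Cp class and 116 to 594 (476) in the low class, which was 56.4 and 25.9 times the other medians. Per kilobase, Mmp9 stood above Mmp14 and Mmp2 in the low class (135, 64.7 and 52.0 CPM per kilobase) and below both elsewhere (2.39, 20.5 and 4.50 in the H2-Ea class). Mmp15, another membrane-type enzyme, was low and overlapped across classes, at medians of 4.50, 7.98 and 4.34 CPM. Mmp25, also membrane-type and chosen after its values were seen, overlapped in every pair of classes, at medians of 2.75, 5.67 and 1.84 CPM.

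The stromelysins, which cut proteoglycans and activate other pro-MMPs, differed from one another. Mmp3 was at 11.3 to 63.7 CPM (19.1) in the H2-Ea class, 0.603 to 8.08 (2.18) in the Cp class and 1.09 to 34.4 (6.90) in the low class, so the H2-Ea libraries lay above all Cp libraries (8.77 times) and overlapped the low ones. Mmp10 was at 0.338 to 2.29 (0.880) in the H2-Ea class, 0 to 1.88 (0.260) in the Cp class and 3.96 to 94.7 (16.9) in the low class, 19.2 and 64.9 times the other medians. Its single library without a count, labelled PancO2 anti-CTLA4 57, allows up to 0.127 CPM (3 counts of its total, counting error only). Mmp11, an unusual stromelysin activated inside the cell by furin and typical of tumour stroma, was at 6.22 to 22.2 (18), 25.0 to 41.3 (32.2) and 37.9 to 55.0 (44.2) in the H2-Ea, Cp and low classes. The H2-Ea class lay below both others.

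Mmp12, the macrophage elastase, and Mmp13, the main interstitial collagenase of rodents, were lowest in the Cp class. Mmp12 was at 45.8 to 157 CPM (102) in the H2-Ea class, 15.0 to 47.7 (29.9) in the Cp class and 37.8 to 362 (121) in the low class. Mmp13 was at 19.5 to 62.6 (39.3), 1.86 to 15.0 (5.62) and 9.04 to 124 (41.2). For Mmp13 the H2-Ea libraries all lay above the Cp libraries (7.0 times), whereas the Mmp12 ranges of every pair of classes overlapped. Mmp8, the collagenase named for neutrophils and chosen here after its values were seen, was at medians of 2.33, 1.05 and 5.47 CPM, with its lowest low-class library (1.99) above the highest Cp library (1.69). A stretch of 157 exon bases of Mmp12 (2.17%) lies opposite Mmp1b, which never exceeded 0.611 CPM.

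A further 3 MMPs outside these groups had a mean of at least 1 CPM. Mmp28 (epilysin, ENSMUSG00000020682, GRCm38 chr11:83440768-83463071), known from epithelia, was at 2.28 to 6.83 CPM (6.27) in the H2-Ea class, 40.002 to 58.8 (46.5) in the Cp class and 2.46 to 7.34 (5.08) in the low class. The Cp median was 7.42 and 9.16 times the others, and 12.0% of its exon bases lie opposite 1700020L24Rik. Mmp23, a membrane-anchored member without the usual hemopexin domain, was at 0.508 to 2.59 (1.23), 0.652 to 2.43 (1.16) and 7.34 to 15.0 (9.91), higher in the low class without overlap. Mmp19 had nearly the same median in all 3 classes, 18.5, 19.7 and 18.4 CPM, over a range of 9.49 to 47.7, with 22.3% of its exon bases opposite Tmem198b.

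The ADAMTS enzymes that cleave versican and aggrecan split between the classes. Adamts1 (ENSMUSG00000022893, GRCm38 chr16:85793827-85803113) was at 33.2 to 63.2 CPM (56.9) in the H2-Ea class, 228 to 402 (335) in the Cp class and 48 to 169 (62.3) in the low class. The Cp median was 5.89 and 5.38 times the others. Adamts5, its neighbour on chromosome 16 (ENSMUSG00000022894, GRCm38 chr16:85856173-85901828), had another pattern, at 1.02 to 16.9 (4.33), 1.22 to 4.03 (2.66) and 27.1 to 63.5 (32.6), with the low class 7.51 and 12.2 times the others. The highest H2-Ea value was that of library 71, and without it the highest was 8.27 CPM. Adamts9 stood in 3 steps without overlap, at 10.9 to 24.6 (17.5), 2.60 to 6.09 (3.49) and 63.6 to 204 (105), with the low class 30.1 times the Cp class. In Adamts9, 9.18% of exon bases lie opposite A730049H05Rik. Adamts4 overlapped in every pair of classes, with medians of 28.6, 22.1 and 38.3 CPM.

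Of the procollagen N-propeptidases, which trim fibrillar procollagens so that fibrils can form, Adamts2 was at medians of 16.9, 7.36 and 7.12 CPM in the H2-Ea, Cp and low classes, with overlap in every pair. Adamts14 went the other way, at 15.6 to 35 (26.8), 35.9 to 70.6 (44.8) and 35.6 to 60.3 (46.5), so all H2-Ea libraries lay below the others by a narrow margin. With CPM rescaled by TMM factors (a normalization that trims extreme genes), Adamts14 overlapped and Adamts10 took its place in that count, which stayed at 5. Adamts7 and Adamts12, which cleave cartilage oligomeric matrix protein, differed from each other. Adamts7 was at 10.1 to 20.9 (16.2), 43.8 to 75.2 (59.1) and 29.8 to 58.4 (37.7), lowest in the H2-Ea class, and Adamts12 at 1.35 to 5.22 (2.58), 0.929 to 5.56 (2.26) and 7.30 to 28.9 (18.7), highest in the low class. Adamts10, which binds fibrillin, was at medians of 21.7, 54.3 and 41.5 CPM. Adamts6, its closest relative, was at 6.81 to 18.9 (14.8), 24.7 to 39.5 (30.7) and 8.42 to 16.7 (11.5), highest in the Cp class by 2.07 and 2.67 times. Adamts13, the von Willebrand factor protease, had a mean below 1 CPM but was at 1.01 to 2.86 (1.23) in the Cp class against at most 0.254 and 0.127 elsewhere. It had no count in 10 libraries, which allows up to 0.0865 to 0.254 CPM there.

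The 18 members with a mean below 1 CPM carried little information. Of these, 7, among them Mmp7, Mmp1a and Mmp1b, never exceeded 1 CPM, and Mmp7 had at most 0.0347 CPM. For 10 of the 18 the highest library was library 71. Adamts20, chosen after its values were seen, lay higher in the H2-Ea class with a median of 0.928 CPM, against 0.0469 and 0.0774 in the Cp and low classes.

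Members varied more within a class than most genes did. The coefficient of variation (SD over mean) had a median over the 28 members of 25.6% in the H2-Ea class, 37.0% in the Cp class and 31% in the low class, and over all 14125 genes of 18.4%, 14.4% and 13.2%. In the H2-Ea class without library 71 these were 22.8% and 12.2%. Mmp10 varied most in the Cp and low classes (116% and 91.0%) with Mmp3 next (78.1% and 87.6%), and Mmp9 varied most in the H2-Ea class (86.6%). Mmp10 had a mean of 32.9 CPM in the low class, but 0.572 CPM in the Cp class with 1 library without a count. Its Cp value therefore rests on few counts, and the part of counting error in it was not tested. The steadiest were Timp2 in the H2-Ea class (13.3%), Mmp14 in the Cp class (9.67%) and Adamts10 in the low class (12.0%).

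Labelled models and antibodies were compared next, which is the contrast the design was built for. By the quasi-likelihood test of edgeR, adjusted after Benjamini and Hochberg, 0 members and 0 genes (0%) passed an adjusted p of 0.05 in any of the 9 label comparisons, which were the 3 pairs of models among IgG libraries (31 members of 16510 genes tested) and each antibody against IgG within MC38 (31 of 16323), CT26 (31 of 16285) and PancO2 (34 of 16410). Unadjusted p lay under 0.05 for 83, 93 and 98 genes between models, and for anti-PD-1 and anti-CTLA4 for 61 and 25 genes within MC38, 54 and 86 within CT26 and 912 and 80 within PancO2. Of the members, 1 was among them in CT26 anti-CTLA4 (Adamts4), and 3 were among those of PancO2 anti-PD-1 (Mmp9, Mmp23 and Adamts9). By limma-voom 0 genes passed in all 9 comparisons, and by DESeq2 1 to 2 genes, none a member, passed in 4 of them. With the class added as a term in a fit over all 36 libraries, 0 of 36 members and 0 of 17652 genes (0%) passed for anti-PD-1, anti-CTLA4 or any pair of models, with unadjusted p under 0.05 for 342 to 1592 genes and for 3 members (Adamts4, Mmp12 and Mmp16, between PancO2 and CT26), and again 0 genes passing by DESeq2 or limma-voom.

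The 5 most abundant members show how labels and classes relate. Mean CPM over the 9 labelled groups (n = 4 each) ranged from 556 to 705 for Timp2, 163 to 316 for Mmp14, 101 to 211 for Adamts1, 83.5 to 199 for Timp1 and 10.3 to 282 for Mmp9. Standard deviations within a group were of the size of the means for Mmp9, such as 157 ± 291 in MC38 IgG, 282 ± 309 in CT26 IgG and 163 ± 205 in PancO2 IgG (mean ± SD, n = 4). The largest member difference between labels was in Mmp9 for PancO2 anti-PD-1, where the 4 libraries (64, 68, 70 and 71) were at 6.30, 20.5, 5.01 and 9.26 CPM. Against them the PancO2 IgG libraries (48, 49, 51 and 54) were at 27.3, 116, 465 and 43.2 CPM. All 4 anti-PD-1 values lay below the IgG values, by 3.97 on the log2 scale (log2 fold change -3.97, SE 1.22, edgeR adjusted p = 0.806). Of these 8 libraries, those labelled IgG 49 and 51 belong to the low class and none of the anti-PD-1 libraries does, so for the low class label and class cannot be told apart. Within the H2-Ea class the IgG library was at 43.2 CPM and the anti-PD-1 libraries at 6.30 and 9.26, and within the Cp class IgG was at 27.3 and anti-PD-1 at 20.5 and 5.01.

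**Figure D2:**
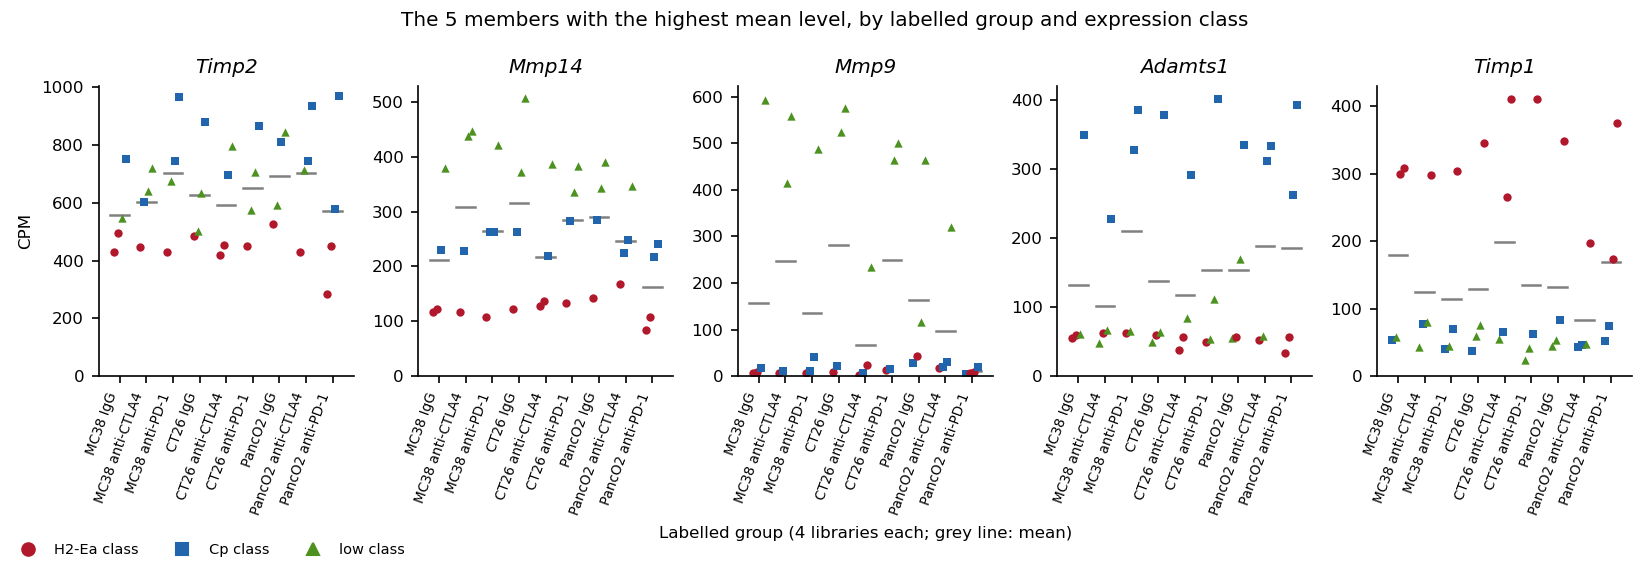
CPM of Timp2, Mmp14, Mmp9, Adamts1 and Timp1 in the 9 labelled groups of 4 libraries, with each point coloured by expression class and a grey line at the group mean. Within a labelled group the highest Timp1 values are those of H2-Ea libraries and the highest Adamts1 values those of Cp libraries.

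Within classes, members were compared with marker levels of neutrophils, macrophages and fibroblasts. Each score is the mean log2(CPM + 0.5) of a marker list, and a slope is the log2 change of a gene per log2 unit of the score, from edgeR with class as a term over 16323 genes, of which 31 were members. The median slope over these members was 0.095 on the neutrophil score, 0.095 on the macrophage score and 0.406 on the fibroblast score, against 0.0028, -0.0146 and -0.0112 over all genes tested. The markers themselves were uneven. Ly6g, a defining neutrophil gene, was at most 0.297 CPM in any library, and summed neutrophil markers ranged from 21.9 to 123 CPM in the H2-Ea class, 52.4 to 205 in the Cp class and 30.6 to 270 in the low class, highest in library 71 and those labelled PancO2 IgG 48 and MC38 IgG 2 respectively. In the first of these, Cxcr2 alone gave 89.4 CPM.

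Of the members, 2 rose with the neutrophil score, both stromelysins of the chromosome 9 group. Mmp10 had a slope of 1.16 (SE 0.25, edgeR adjusted p = 0.0212) and Mmp3 a slope of 1.15 (SE 0.26, adjusted p = 0.0296). This was 2 of 31 members higher, where 0.294% of genes were called, and 0 lower, where 0.0306% were. In the low class the 4 libraries of highest neutrophil score (MC38 IgG 2, MC38 anti-CTLA4 10, CT26 IgG 24 and CT26 IgG 29) had Mmp10 at 94.7, 62.2, 67.0 and 59.4 CPM, and the other 8 had 3.96 to 31.9. Mmp3 was at 25.7, 26.1, 34.4 and 19 CPM in these 4 libraries and 1.09 to 18.3 in the other 8. The line after the fourth library was drawn after the values were seen and is a description only. An edgeR fit over the libraries of all classes with a separate slope for each class gave Mmp3 1.48 in the low class (SE 0.28, adjusted p = 0.00768). There 0.184% of genes were called higher. Without library 71 this slope was 1.47 (adjusted p = 0.00823). The keratinocyte markers also reached 551 CPM in the library labelled PancO2 IgG 48, which had the highest Mmp3 (8.08) and Mmp10 (1.88) of the Cp class. Without that library the slopes were 1.08 for Mmp3 (adjusted p = 0.119) and 1.10 for Mmp10 (0.0579), and with a keratinocyte score as a further term 1.15 (0.0603) and 1.12 (0.0509), so the calls were lost at slopes of nearly the same size. With Csf3r alone as the neutrophil score the slopes were 0.98 (0.114) and 0.58 (0.373). Without the library labelled MC38 IgG 2 only Mmp3 was called (0.0389, Mmp10 0.0629). Mmp9, although stored by neutrophils, had a slope of 0.19 (SE 0.21, adjusted p = 0.751), and Mmp8 one of 0.26 (SE 0.19, adjusted p = 0.583).

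No member passed on the macrophage score, where 1.16% of genes were called higher and 0.196% lower in edgeR. At an unadjusted p under 0.05 stood Adamts9 with a slope of 0.78 (SE 0.22, adjusted p = 0.0680), Adamts10 with 0.56 (SE 0.19, adjusted p = 0.177) and Mmp12, the macrophage elastase, with -1.26 (SE 0.52, adjusted p = 0.305). Adamts9 was called by DESeq2 (adjusted p = 0.0349), by limma-voom (0.0177) and without library 71 (0.0442). With the receptor gene Csf1r alone as the score, Adamts9 (0.56, adjusted p = 0.0299) and Adamts10 (0.54, 0.0133) were called higher and Mmp12 lower (-1.29, 0.0132), which is 2 of 31 members higher and 1 lower where 3.91% and 7.3% of genes were called.

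With the fibroblast score 7 members rose and 0 fell, where 1.94% and 0.674% of genes were called. Mmp2 had a slope of 1.0 (SE 0.20, adjusted p = 0.00236) and its activator Mmp14 one of 0.30 (SE 0.07, adjusted p = 0.0109). Mmp9 had a slope of 1.43 (SE 0.33, adjusted p = 0.0112), Mmp23 of 0.89 (SE 0.22, adjusted p = 0.0180) and the procollagen peptidase Adamts2 of 0.88 (SE 0.18, adjusted p = 0.00343). Adamts4 (0.71, SE 0.20, adjusted p = 0.0494) and Adamts15 (1.59, SE 0.40, adjusted p = 0.0236), both proteoglycan-cleaving, completed the 7, and Adamts15, at medians of 0.818 to 0.861 CPM, was named after its values were seen. None of the 3 inhibitors was called, with slopes of -0.13 (SE 0.19) for Timp1, 0.08 (SE 0.10) for Timp2 and 0.07 (SE 0.15) for Timp3.

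Which members were called depended on the libraries and on the markers. Without library 71 there were 11, the same 7 and Mmp15, Adamts5, Adamts10 and Adamts12, all higher, where 4.01% of genes were called. Without the library labelled MC38 anti-PD-1 18, which has the highest score of the Cp class, 3 remained (Mmp2, Mmp14 and Adamts2), and the slopes of the other 4 were 1.37 for Mmp9, 0.81 for Mmp23, 0.80 for Adamts4 and 1.59 for Adamts15, close to those with it. With Pdgfra alone as the score 5 were called, of which Mmp9 alone was shared with the 7, and among them Timp1 was lower (slope -0.59, SE 0.16, adjusted p = 0.0123). This was 4 members higher and 1 lower, where 5.57% and 7.71% of all genes were called. On that score Mmp2 had a slope of 0.19 (adjusted p = 0.619).

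**Figure D3:**
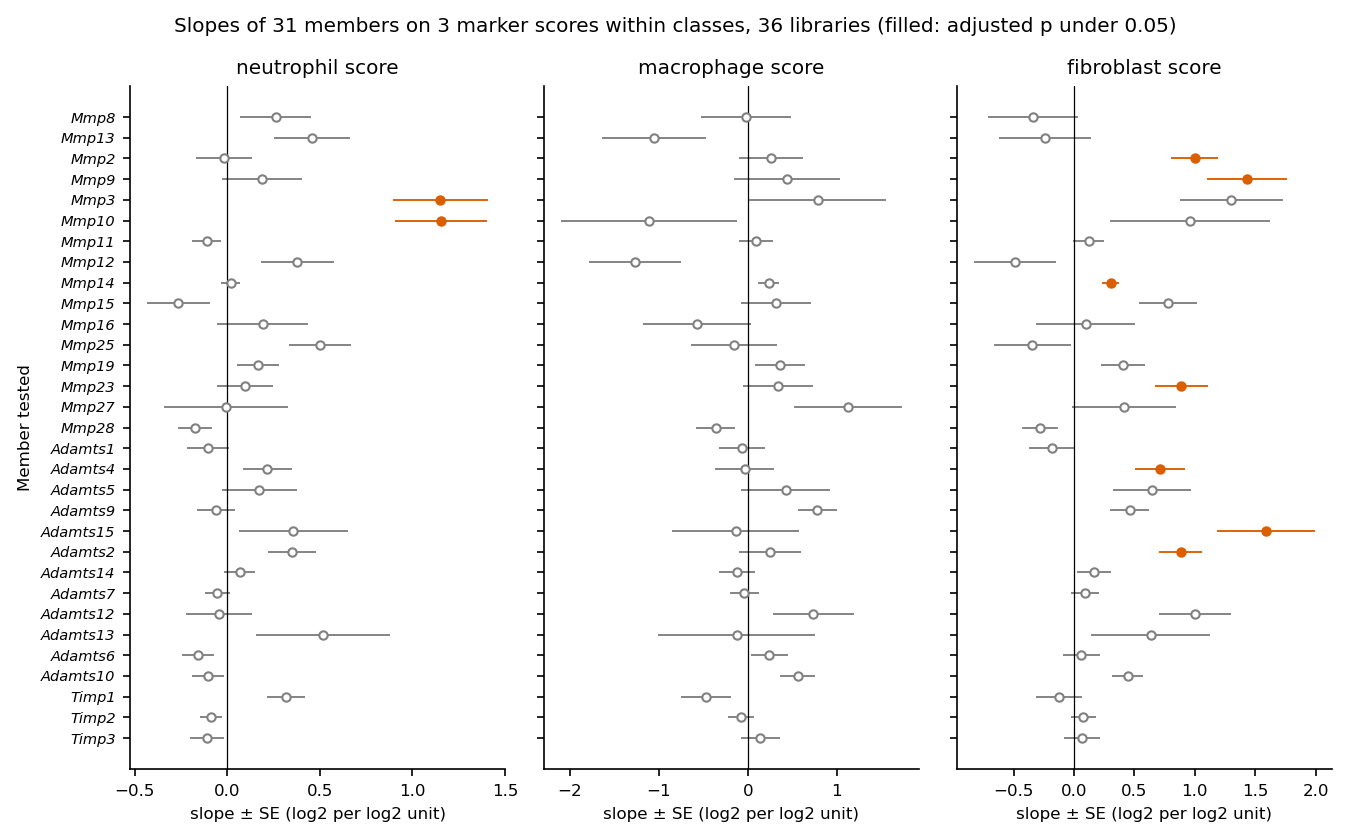
Slopes of 31 members on the neutrophil, macrophage and fibroblast scores in log2 per log2 unit, with bars of 1 SE and filled points for an adjusted p under 0.05. Filled points stand at Mmp3 and Mmp10 for the neutrophil score and at 7 members for the fibroblast score, and at none for the macrophage score.

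The slope on the fibroblast score differed between classes for 1 member, Mmp2 (adjusted p of the interaction 0.0351 in edgeR; 0.251% of genes were called). It was 1.81 (SE 0.24) in the H2-Ea class, 0.78 (SE 0.22) in the Cp class and -0.54 (SE 0.39) in the low class, where the score itself spanned 0.751 log2 units, against 1.76 and 1.32 in the others. Without library 71 the adjusted p was 0.0249, and by limma-voom it was 0.0592. In the H2-Ea class Mmp2 went from 4.52 CPM (PancO2 anti-PD-1 64 by label) to 37.3 CPM (PancO2 anti-CTLA4 62). Mmp28 fell with the fibroblast score in the low class (slope -1.65, SE 0.38, adjusted p = 0.0329, where 0.508% of genes were called lower), but its interaction did not pass (adjusted p = 0.113, and 0.0198 without library 71). In the edgeR fit with a separate slope for each class, 1.5% of genes rose with the fibroblast score in the Cp class. The members among them were Adamts2 (1.01, SE 0.26, adjusted p = 0.0234), Mmp15 (1.34, SE 0.38, adjusted p = 0.0419) and Mmp2 (0.78, SE 0.22, adjusted p = 0.0383). Mmp2 was also the 1 member called in the H2-Ea class, where 0.263% of genes were. Without library 71, Adamts5 was called in the H2-Ea class as well (slope 1.67, SE 0.35, adjusted p = 0.0168, against 0.493% of genes), as were Mmp14 in the low class (0.59, adjusted p = 0.0453, against 1.5%) and Mmp16, Mmp19 and Adamts20 in the Cp class (adjusted p of 0.0463 to 0.0494, against 3.49%). Mmp16 and Adamts20 were named after their values were seen. For the neutrophil score 0 members and 4.04% of genes differed between classes, which is 660 genes, against 11 without library 71 and 13 by limma-voom with it. For the macrophage score 0 members and 0 genes (0%) did.

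**Figure D4:**
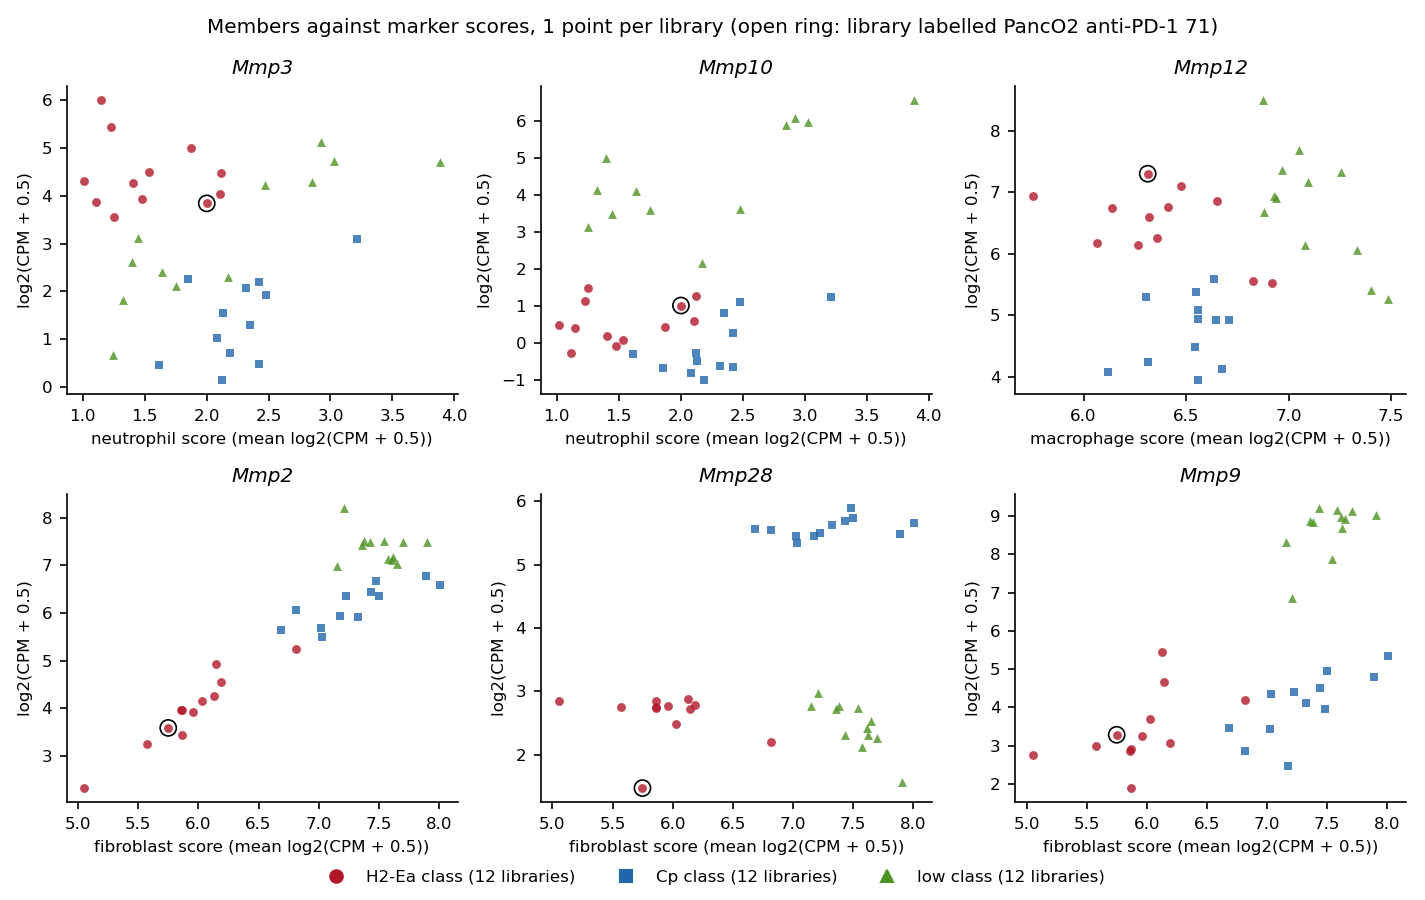
Level as log2(CPM + 0.5) of 6 members against a marker score (mean log2(CPM + 0.5) of the markers) in each of the 36 libraries, coloured by class, with a ring on library 71. Mmp2 rises with the fibroblast score in the H2-Ea and Cp classes (r of 0.947 and 0.812), and Mmp10 is highest in the 4 low-class libraries of highest neutrophil score.

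Correlations within classes gave 1 called relation of the 252 between 28 members and 3 scores, where 26 of 127125 relations of all genes (0.0205%) were called. This was Mmp2 with the fibroblast score in the H2-Ea class (n = 12, Pearson r = 0.947, permutation p = 1e-05, the smallest that 100000 permutations allow, adjusted p = 0.0489 over the 127125 relations of all genes of at least 1 CPM). Spearman's rho was 0.930 (permutation p = 3e-05, adjusted p = 0.106), and r was 0.894 without the 2 libraries farthest from the median score. In the Cp class r was 0.812 (adjusted p = 0.186) and in the low class -0.243 (adjusted p = 0.812), both by permutation test. Next in order was Mmp3 with the neutrophil score in the low class (r = 0.857, rho = 0.846, permutation p = 0.0005, adjusted p = 0.145, and r = 0.854 without 2 libraries). Mmp28 with the fibroblast score in the low class followed (r = -0.831, rho = -0.811, permutation p = 0.00078, adjusted p = 0.159). With the macrophage score in the low class, r by permutation test was -0.786 for Mmp13 (rho = -0.741, adjusted p = 0.193), 0.774 for Adamts10 (rho = 0.720, adjusted p = 0.221) and -0.736 for Mmp12 (rho = -0.608, adjusted p = 0.254). Without 2 libraries these were -0.607, 0.485 and -0.430. Mmp12 was positive with the neutrophil score in the Cp class (r = 0.740, rho = 0.776, permutation test, adjusted p = 0.201). Adamts5 with the fibroblast score in the H2-Ea class had r = 0.588 (permutation test, adjusted p = 0.406) and 0.902 without library 71. In all, 45 of the 252 relations (17.9%) had an unadjusted permutation p under 0.05, against 12% of the relations of all genes.

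Levels of neighbours on chromosome 9 were also compared within classes. All genes were set against Mmp13 and against Mmp3, which were chosen after their values were seen. No pair of these with each other or with Mmp8, Mmp10 or Mmp12 passed after adjustment. Pairs without Mmp13 or Mmp3 were not tested. Mmp12 and Mmp13, the first pair in the row and chosen after their values were seen, had r of 0.848 in the low class, 0.763 in the H2-Ea class and 0.718 in the Cp class (n = 12 each). Ranked by r with Mmp13 among 14124 genes, Mmp12 was number 34 in the low class, 10 in the H2-Ea class and 406 in the Cp class. By permutation test none passed after adjustment over 84744 relations (adjusted p = 0.103, 0.154 and 0.236). Their highest library in the low class was the same, that labelled PancO2 IgG 51, with Mmp12 at 362 CPM and Mmp13 at 124 CPM, and their lowest was that labelled CT26 anti-PD-1 41, at 37.8 and 9.04 CPM. Mmp3 and Mmp10 had r = 0.750 in the low class (permutation test, adjusted p = 0.210), and 0.321 and 0.00767 in the Cp and H2-Ea classes. Other pairs had r below 0, such as Mmp12 with Mmp3 in the H2-Ea class (-0.370) and Mmp8 with Mmp13 in the low class (-0.162). Mmp3 was high in the H2-Ea class, where Mmp10 was at 2.29 CPM or less.

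**Figure D5:**
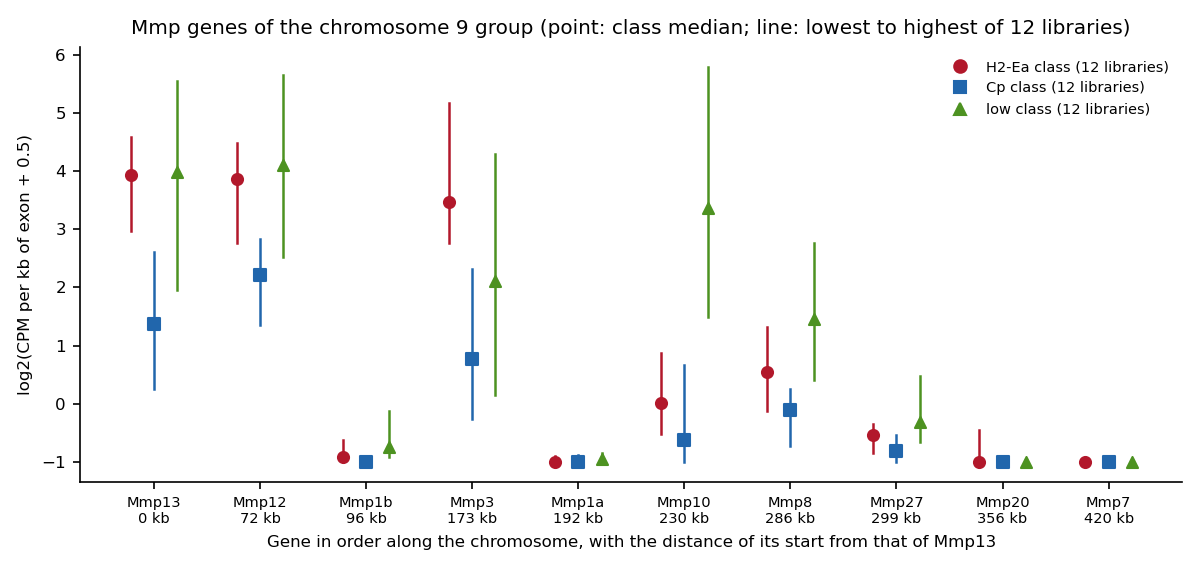
Class median (point) and range over 12 libraries (line) of log2(CPM per kilobase of exon + 0.5) for the 10 members of the chromosome 9 group, in order along the chromosome with the distance from the start of Mmp13. Mmp10 is high in the low class alone, Mmp12 and Mmp13 have their lowest medians in the Cp class, and the medians of Mmp1a, Mmp20 and Mmp7 lie at the bottom of the axis, which stands for 0 CPM.

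Other genes of matrix proteolysis were counted from a list of 48, of which 42 were tested against the scores. With the neutrophil score 1 rose, where 0.294% of all genes tested did. This was Serpinb2, an inhibitor of plasminogen activators (slope 3.07, SE 0.45, edgeR adjusted p = 7.2e-05). Its level was low and uneven, with a median of 0.180 CPM and a highest library of 27.5 CPM in the Cp class. Its slope without PancO2 IgG 48 or with a keratinocyte term, as given for Mmp3 and Mmp10, is not given here. With the macrophage score 1 fell, where 0.196% of all genes tested did. This was Bsg, the MMP inducer basigin (-0.57, SE 0.15, edgeR adjusted p = 0.0365). With the fibroblast score 10 rose and 0 fell, where 1.94% and 0.674% of all genes tested did. Among the 10 were the plasminogen activator Plat (0.74, SE 0.19, edgeR adjusted p = 0.0255), the procollagen C-proteinase Bmp1 (0.64, SE 0.13, adjusted p = 0.00405) and the versican gene Vcan (0.69, SE 0.15, adjusted p = 0.00564). Fap and Lum, also among the 10, are markers in that score, so their slopes are not independent of it. By class, Vcan was at 13.8 to 54.3 CPM in the H2-Ea class, 5.34 to 10.5 in the Cp class and 560 to 1262 in the low class. Of the ADAMTS enzymes that cleave versican and aggrecan, Adamts9, Adamts5 and Adamts4 had class medians in the same order. In Adamts5 the H2-Ea and Cp classes overlapped, and in Adamts4 every pair did. Adamts1 had another order, with its highest median in the Cp class (335 CPM, against 56.9 in the H2-Ea class and 62.3 in the low class). Reck, a membrane-anchored MMP inhibitor, was at 5.90 to 12.9, 0.858 to 2.08 and 7.41 to 16.5 CPM in the H2-Ea, Cp and low classes, lowest in the Cp class. The fibronectin gene Fn1 was at 2075 to 5140, 8443 to 12544 and 2530 to 4421 CPM, highest in the Cp class, as was Thbs1, the thrombospondin-1 gene, at 48.2 to 138, 1394 to 2616 and 272 to 751 CPM.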

How the data were processed

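RNA of 36 whole tumours was sequenced after poly-A selection. The authors mapped reads with TopHat and Bowtie to GRCm38/mm10 and deposited counts per Ensembl gene from HTSeq, not normalized. The labels name a TruSeq V2 kit. The study's methods name a stranded KAPA kit in a section on unique mutations, which does not say whether it covers these tumours. Whether counting used strand is not given in the sources used here, so reads of opposite-strand neighbours may be shared. Groups came from the labels, and classes from 2 genes (H2-Ea-ps above 10 CPM, then Cp above 1000 CPM). CPM used the gene counts of each library as total, without HTSeq summary lines, which held 44.8% to 86.5% of reads.

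Labels, scores and their interaction with class were tested in R 4.3.3 with edgeR 4.0.16 (TMM, filterByExpr, quasi-likelihood test, Benjamini-Hochberg over all genes tested, adjusted p of 0.05). DESeq2 1.42.0, limma-voom (limma 3.58.1), size factors, no filter, single-marker scores, all 3 scores together and left-out libraries were alternatives, and the procedure was tested on simulated data. Correlations used log2(CPM + 0.5), 100000 two-sided permutations and genes of at least 1 CPM, with adjustment over all their relations, wider than the planned adjustment over member relations alone. Each library has its own mouse number, so the samples of a group were taken as separate mice. Members named were the 24 of highest mean CPM, those called in a label comparison or interaction, and those without overlap at a median of at least 1 CPM, and any other is said to be chosen after its values were seen. Members, lists and tests were chosen with earlier results of these data known. Intervals for counts of 0 (3 counts) cover counting error only.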

Additional observations from a re-analysis of the deposited data

Results flagged for a closer look

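In sets of 4 libraries that share a label, the highest or lowest value was compared with the rest by Dixon's ratio at its 95% critical value, for the 5 members of highest mean CPM. Of 45 sets, 13 held a library far from the other 3, where chance alone gives about 1 in 20. In all 13 that library was of another class than the other 3. The flags fell on Mmp9, Adamts1 and Timp1 only, which are members that separate 1 class without overlap as given above. They therefore restate that separation and are no further evidence of it.

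Mmp9 was at 234 CPM in the library labelled CT26 anti-CTLA4 32 (3.21 to 25 in the others), 594 in MC38 IgG 2 (7.41 to 16.9), 488 in MC38 anti-PD-1 19 (6.79 to 40.4) and 321 in PancO2 anti-CTLA4 61 (17.9 to 30.6), and these 4 libraries are of the low class. Adamts1 was at 378 CPM in the library labelled CT26 IgG 28 (49 to 63.6), 350 in MC38 IgG 7 (55.8 to 60.9) and 228 in MC38 anti-CTLA4 8 (48 to 67), all of the Cp class. Timp1 was at 345 CPM in the library labelled CT26 IgG 27 (37.8 to 76.2), 411 in CT26 anti-PD-1 42 (24.2 to 61.8), 298 in MC38 anti-CTLA4 14 (43.7 to 79.9), 304 in MC38 anti-PD-1 16 (40.2 to 70.2), 348 in PancO2 IgG 54 (44.4 to 83.6) and 197 in PancO2 anti-CTLA4 62 (42.7 to 47.6), all of the H2-Ea class.

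The slope of Mmp2 on the fibroblast score differed between classes (edgeR interaction, adjusted p = 0.0351), from 1.81 in the H2-Ea class to -0.54 in the low class.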

How the results depend on the processing

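In the label comparisons no member was called under any alternative. By DESeq2 the genes called, none a member, were 1 for PancO2 against MC38, 1 for CT26 against MC38, 2 for PancO2 anti-PD-1 and 2 for PancO2 anti-CTLA4, and all 113 fits that left out 1 library called 0 genes. Members called on the neutrophil score went from 2 to 0 with Csf3r alone, 0 without the library labelled PancO2 IgG 48, 0 with a keratinocyte term, 1 without MC38 IgG 2 and 1 with the 3 scores together. On the macrophage score they went from 0 to 1 by DESeq2, 1 by limma-voom, 1 without PancO2 anti-PD-1 71 and 3 with Csf1r alone. On the fibroblast score they went from 7 to 11 without PancO2 anti-PD-1 71 and 3 without MC38 anti-PD-1 18, and with Pdgfra alone the slopes of Adamts15 (-0.12) and Adamts2 (-0.062) changed sign. The fibroblast interaction called 0 members by limma-voom and 2 without PancO2 anti-PD-1 71, and Spearman's rho called 0 relations in place of 1. The cause of these changes was not tested. The left-out libraries other than PancO2 anti-PD-1 71, and the keratinocyte term, were chosen after seeing the data.

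Genes called on the neutrophil score went from 53 to 392 without a filter, 128 by DESeq2, 80 without PancO2 anti-PD-1 71, 795 with Csf3r and 91 without MC38 IgG 2. On the macrophage score they went from 221 to 417 by DESeq2, 405 without PancO2 anti-PD-1 71, 1830 with Csf1r, 129 without PancO2 anti-CTLA4 62 and 145 with 3 scores. On the fibroblast score they went from 427 to 737 by DESeq2, 1026 without PancO2 anti-PD-1 71, 2168 with Pdgfra, 154 without MC38 anti-PD-1 18 and 281 with 3 scores. Interactions went from 660 to 13 (limma-voom) and 11 (without PancO2 anti-PD-1 71) for the neutrophil score, from 0 to 3 without that library for the macrophage score, and from 41 to 76 and 205 for the fibroblast score. No class median of the 144, with CPM rescaled by TMM factors or without PancO2 anti-PD-1 71, moved beyond the spread between libraries. That library is of the H2-Ea class, so leaving it out could not move the medians of the Cp and low classes. The TMM factors lay between 0.923 and 1.11, so rescaling could move a median only slightly. The count is therefore not read as a test of how stable the medians are. No paired analysis was possible because each mouse number belongs to 1 library.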
